A study of Drosophila melanogaster with 6 samples.

Results

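Cytosolic ribosomal protein genes of adult Drosophila melanogaster were chosen by name, as every gene whose symbol starts with RpL, RpS or RpLP followed by a number. The rule took 92 of the 17609 genes in the deposited tables. Of these, 49 were large-subunit genes, 38 were small-subunit genes and 3 were genes of the stalk (RpLP0, RpLP1 and RpLP2). The other 2, RpL24-like and RpLP0-like, code for proteins whose yeast relatives help to assemble the large subunit. By their names, 27 members fell into 13 families of related genes, counting the 2 assembly homologues with RpL24 and RpLP0, and 65 were single.

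Ribosomal proteins combine with ribosomal RNA into a small subunit, which reads the messenger RNA, and a large subunit, which joins amino acids. Each ribosome carries most of these proteins in 1 copy, so cells make them in matched amounts, and their genes rank among the most strongly transcribed. Insulin and TOR signalling raise ribosome production in growing fly tissues, whereas the transcription factor Foxo acts when insulin signalling is low. In flies, some ribosomal protein genes have a second copy that is used mainly in the germ line.

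The foxo RNAi flies carried Act88F-Gal4, a driver active in indirect flight muscle, and a UAS hairpin against foxo (Act88FGal4>UAS-FoxoRNAi). In the control flies the driver was crossed to w1118 (Act88FGal4>w1118), so every group shared it. From each genotype there was 1 library of thorax, labelled as skeletal muscle, 1 of gut, and 1 of carcass, labelled as fat body and dissected without gut and eggs. The labels give an age of 10 days, rearing at 25 °C, and a sugar and yeast diet that began 2 to 3 days after eclosion and lasted 10 days. Neither the sex of the flies nor the number pooled in a library is stated in the labels.

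Library totals ran between 13274574 and 34385727 reads, above the depth range named in the series' design text, and the foxo RNAi thorax library was the deepest. Markers separated the labelled tissues in part in edgeR's quasi-likelihood test (adjusted p under 0.05): 7 of 7 flight muscle genes were higher in thorax than in gut, 7 of 8 gut genes were higher in gut than in carcass, and 5 of 6 fat body genes were lower in gut than in carcass. Against carcass, thorax was lower in 1 of 6 fat body genes. That list summed to 34686 and 34529 CPM (counts per 1000000 counted reads of the library) in the foxo RNAi and control thorax. In carcass it summed to 60223 and 79502. Most fat body genes thus did not separate thorax from carcass, whereas 7 of 7 flight muscle genes were higher in thorax. The targeted gene foxo had 145 CPM in the foxo RNAi thorax, against 190 in the control thorax, a scaled ratio of 0.717. Its ratios were 0.783 in gut and 0.764 in carcass, where the driver is not known to be active, so these values did not show a loss particular to muscle.

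Ribosomal protein genes took a large and tissue-dependent part of each library. Their share of all reads was 7.19% in the foxo RNAi thorax and 6.89% in the control thorax. In gut it was 8.14% in the foxo RNAi library and 8.76% in the control library, and in carcass 14.97% in the foxo RNAi library and 12.98% in the control library. Carcass stood above gut and gut above thorax in each genotype. Scaled by library total, the median log2 difference of gut from carcass was -0.65 for members and -0.77 for all genes. The step between gut and carcass was therefore not particular to these genes. The median member had 778 and 717 CPM in the foxo RNAi and control thorax, 970 and 998 in gut, and 1620 and 1333 in carcass.

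**Figure D1:**
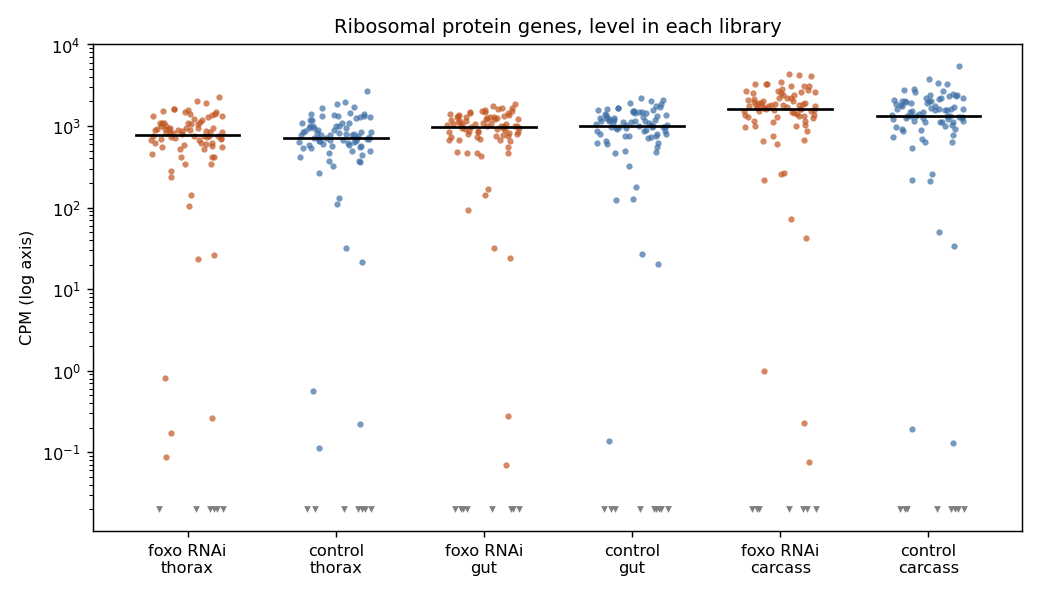
Level of 89 ribosomal protein genes in each library, in CPM on a log axis, with foxo RNAi libraries in orange and control libraries in blue. Each point is a gene, the bar is the median over all 92, and grey triangles at the foot mark genes at 0 reads. Most genes lie in a band around the median, with a small set far below it in every library.

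Most members formed 1 band, and 10 had almost no reads. In every library 79 members had at least 1000 reads, whereas 10 members had fewer than 100 reads over the 6 libraries together. Between these stood 3 members, among them RpLP0-like with 395 to 951 reads per library and RpS15Ab with 297 to 913. Of these 10, RpL10Aa, RpS10a, RpS28a and RpL41 had no read in any library. RpL37b and RpL7-like had 1 read each over the 6 libraries, RpS28-like had 3, RpS19b 24 and RpL22-like 40. A count of 0 allows up to 3 reads, which is 0.0872 CPM in the deepest library and 0.226 in the shallowest. RpL41 and RpS10a lie wholly within the spans of the coding genes NaCP60E and tau on the other strand. RpS28-like and RpL7-like overlap the coding genes CG3769 and CG34164 on the same strand. Whether that lowered their counts was not tested.

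RpS6, which codes for a core protein of the small subunit and the classic substrate of S6 kinase, was listed with only 0 to 9 reads per library. The noncoding gene CR33222 covers 1679 of the 1708 bases of RpS6 on the same strand, and it was listed at 0 reads in all 6 libraries. The deposited length-scaled value (RPKM) of CR33222 nevertheless reached 3.327. RpS6, RpL41 and RpS10a are therefore treated as not measured, and nothing is drawn from their counts.

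Among single-copy members, levels were compared as CPM per kilobase of annotated exon, over the 63 genes other than RpL41 and RpS6. RpLP2, an acidic stalk protein gene, had the highest mean, with 1810 in the foxo RNAi thorax and 1643 in the control thorax, 2470 and 2545 in gut, and 4254 and 3377 in carcass. RpS27A, which codes for ubiquitin fused to a small-subunit protein, came next, with 1838 and 1999 in the foxo RNAi and control thorax. RpLP1 followed, and RpL39 was also among the 5 highest. The stalk is the one part of the ribosome that holds the P1 and P2 proteins in several copies.

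The lowest of the 63 were RpL38, RpS21, RpS9, RpL28 and RpL30. RpL38 had 338 and 320 in the foxo RNAi and control thorax, 423 and 315 in gut, and 587 and 625 in carcass. The highest single-copy gene stood 5.40 to 8.07 times above the lowest within a library. The ranking was much alike between libraries, with Spearman's rho of 0.852 to 0.960 over the 63 genes for the 15 pairs of libraries, as a description across genes that share exon models and mapping. Exon length came from the union of annotated transcripts, so a gene with long, rarely used exons is understated.

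The comparison of foxo RNAi with control within a tissue rests on 1 library per genotype, so it has no replicate check and no p-value. A call needed at least 30 reads over the pair of libraries, a ratio of 2-fold or more after TMM scaling, and a 95% interval whose nearer bound lay at 1.5-fold or more. TMM scaling sets the bulk of genes level between libraries. The intervals cover counting error only. A smaller number of cells of a type and a smaller amount of a transcript per cell cannot be told apart in these bulk samples.

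In thorax, where the hairpin was expressed in flight muscle, the ribosomal proteins as a group had a median ratio near 1, and the assembly homologue RpL24-like alone was called. Of 83 members with enough reads, 1 was lower and 0 were higher, beside 2.72% of all genes called lower and 3.56% called higher. The median log2 ratio was 0.00 for the members, as it was for all 8887 genes. Of the members, 43 had a ratio over 1, beside 50.2% of all genes, and 40 under 1. With total-count scaling, which moved the medians of members and of all genes to 0.09, 65 members were over 1, beside 60.6% of all genes. The 45 large-subunit genes had a median of -0.01, the 33 small-subunit genes 0.04 and the 3 stalk genes 0.05.

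RpL24-like (genome Release 6, chromosome 3R, 11430740 to 11431582, minus strand) had 8060 reads in the foxo RNAi thorax, against 11896 in the control thorax, although the foxo RNAi library was the deeper. That was 234 CPM, against 661. The ratio was 0.334 (0.324 to 0.343), and the call held under every scaling tried. RpL24, the ribosomal protein gene it resembles, had 796 CPM in the foxo RNAi thorax and 667 in the control thorax, a ratio of 1.12.

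In gut RpL24-like had 92.1 CPM in the foxo RNAi library and 124 in the control library, a ratio of 0.632 (0.588 to 0.678) that did not pass the rule. In carcass it had 215 in each library, with a scaled ratio of 0.891. The control thorax library stood above the other 5 libraries, which held 92.1 to 234 CPM. RpL24-like shares 23 of its 843 bases with the antisense gene CG18643, which had 140 reads in the foxo RNAi thorax and 165 in the control thorax. RpLP0-like, the other assembly homologue, had 23.4 CPM in the foxo RNAi thorax and 31.7 in the control thorax, a ratio of 0.696 that was not called.

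Among the core members, the lowest ratios in thorax belonged to RpL10, whose yeast relative is needed for the subunits to join, at a log2 of -0.39, RpL5, which binds 5S ribosomal RNA, at -0.34, and RpS3A at -0.30. At the top stood RpL22-like at 0.42, from 28 and 10 reads in the foxo RNAi and control libraries, with an interval that includes equality. RpL26 at 0.25, RpS15Ab at 0.22 and RpLP0 at 0.21 were also among the 5 highest. RpLP0 had 1638 CPM in the foxo RNAi thorax and 1330 in the control thorax.

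A list of 8 gut genes summed to 1995 CPM in the foxo RNAi thorax, against 70.4 in the control thorax. Of the 8, 7 were called higher, beside 3.56% of all genes, and none was at 0. The flight muscle list summed to 14155 and 16111, with 1 of 7 measured members lower and 1 of 8 at 0 in each library. The 1 called lower was Act88F, the gene that the driver is named after, at a log2 of -1.59. The part of these differences in the ribosomal protein values was not tested.

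**Figure D2:**
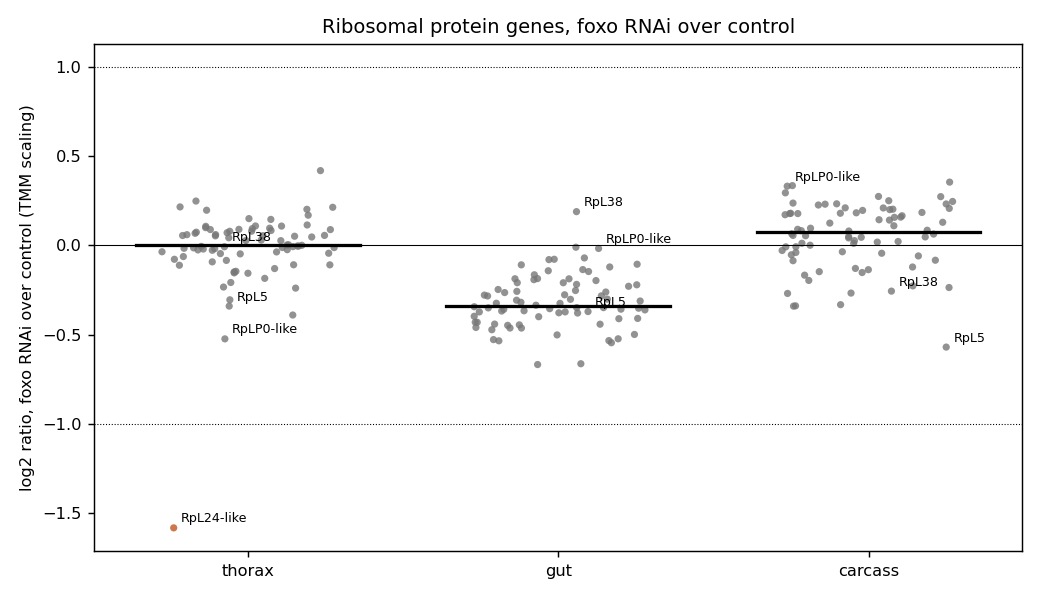
Log2 ratio of foxo RNAi over control after TMM scaling for ribosomal protein genes with at least 30 reads in the pair of libraries, 80 drawn in thorax and 79 each in gut and carcass. Bars are medians of all tested members, dotted lines mark 2-fold, and orange points are called. RpL24-like stands alone below 2-fold in thorax, the gut cloud lies below 0 except RpL38, and RpL5 is the lowest point in carcass.

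In gut the ribosomal proteins lay together slightly below the control level, and none was called. Of 82 members, 81 had a ratio under 1, beside 51.1% of all genes, and 0 passed the size rule, beside 3.18% of all genes called lower and 2.22% called higher. The median log2 ratio was -0.34 for the members and -0.01 for all 7866 genes. Scaling by library total instead gave medians of -0.10 for the members and 0.22 for all genes, with 59 of 82 members under 1, beside 25.9% of all genes, so the count under 1 depended on the scaling.

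The summed reads of all 92 members were 0.789 of the control level after TMM scaling and 0.929 with total-count scaling. Large-subunit genes had a median of -0.35 (44 genes), small-subunit genes -0.28 (33 genes) and stalk genes -0.44 (3 genes). RpLP1 had 1541 CPM in the foxo RNAi gut, against 1895 in the control gut, a log2 ratio of -0.53.

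Among the 5 lowest gut ratios were those of RpL22 at -0.67, RpL24-like at -0.66 and RpL3 at -0.55. RpL22, a large-subunit gene whose protein carries an added histone H1-like domain in flies, had 483 CPM in the foxo RNAi gut, against 651 in the control gut. RpL3, whose protein lies near the peptidyl transferase centre, had 1652, against 2048. With a 1.5-fold rule, 2 members, RpL22 and RpL24-like, were called lower, beside 7.02% of all genes.

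RpL38 was the single member above 1 in gut, with 429 CPM in the foxo RNAi library, against 320 in the control library, a ratio of 1.14 (1.10 to 1.18). Next came RpS15Ab at -0.01, RpLP0-like at -0.02, RpL10 at -0.07 and RpL34a at -0.08, and these 4 were above 0 with total-count scaling, at 0.16 to 0.23. RpL38 is a small large-subunit protein whose loss in flies gives a Minute phenotype of slow growth and thin bristles.

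Marker sums also differed between the gut libraries. The 8 gut genes summed to 80459 CPM in the foxo RNAi gut and 103170 in the control gut. Of the 8, 2 were called lower, beside 3.18% of all genes, and none was at 0. A list of 7 fat body genes summed to 1269 and 1953, with 1 of 5 measured members lower and 1 of 7 at 0 in each library, and a list of 8 flight muscle genes summed to 560 and 321, with 0 of 6 called and 1 of 8 at 0 in the foxo RNAi and 2 in the control library. Their part in the ribosomal protein values was not tested.

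In carcass the members had a median ratio near 1 as a group, and a single member was called. Of 82 members, 1 was higher and 0 were lower, beside 3.41% of all genes called higher and 10.2% called lower. The median log2 ratio was 0.07 for the members and 0.06 for all 8589 genes, and 55 of 82 members had a ratio over 1, beside 53.5% of all genes. With total-count scaling the medians were 0.24 for the members and 0.22 for all genes, and 71 members were over 1, beside 63.3% of all genes.

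Among the 5 highest members in carcass were RpS2 at a log2 of 0.36, RpL13A at 0.34, RpLP0-like at 0.33 and RpS10b at 0.29. RpS2 had 3099 CPM in the foxo RNAi carcass, against 2159 in the control carcass. The lowest were RpL5 at -0.57, RpL10 at -0.34, RpL15 at -0.34, and RpS30, which codes for a ubiquitin-like protein fused to a small-subunit protein, at -0.33. RpL5 had 4100 CPM in the foxo RNAi carcass and 5421 in the control carcass, and over the 6 libraries together it had the most reads of all members.

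The gut genes that served as markers above summed to 76.2 CPM in the foxo RNAi carcass and 734 in the control carcass. Of these, 8 of 8 were lower, beside 10.2% of all genes, and none was at 0. The fat body list summed to 60223 and 79502, with 2 of 5 measured members lower and none at 0. The flight muscle list summed to 1520 and 1486, with 2 of 6 lower and 2 of 8 at 0 in the foxo RNAi and 1 in the control library. Called lower were Act88F at a log2 of -2.24 and Strn-Mlck at -1.02. The call of Strn-Mlck ended with total-count scaling, at -0.85.

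A list of 12 ovary and eggshell genes summed to 9269 CPM in the foxo RNAi carcass, against 3685 in the control carcass, although the carcass was labelled as dissected without eggs. Of 10 measured members, 4 were called higher, beside 3.41% of all genes. These were the vitelline membrane genes Vm26Aa and Vm26Ab (2.81-fold and 2.62-fold), vas, a germ line helicase gene (2.24-fold), and yl (2.02-fold). The gene yl codes for the receptor that takes up yolk into the oocyte. Outside carcass the calls in this list went the other way. Called lower with foxo RNAi were yl in thorax, at a log2 of -3.74, and osk in gut, at -1.95. Both rest on few reads. The whole list had 156 and 175 reads in the foxo RNAi and control thorax and 249 and 275 in gut, against 123047 and 57570 in carcass. The chorion genes Cp36 and Cp38 were at 0 in all 6 libraries. Genes of the testis list (12 genes) summed to 31.6 and 43.8 CPM in the foxo RNAi and control carcass, with 7 and 6 of its genes at 0, and male accessory gland genes (5 genes) to 0 in both. In the foxo RNAi and control thorax the testis list summed to 475 and 620 CPM, with 1 of its genes measured. The part of these markers in the ribosomal protein values was not tested.

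The direction of the ratio was also counted by tissue. Among the 82 with enough reads in all 3 tissues, 35 had a ratio over 1 in thorax and carcass and under 1 in gut (42.7%, beside 12.2% of all genes). Another 20 were over 1 in carcass alone (14.1% of all genes), 19 were under 1 in all 3 tissues (13.2% of all genes), 7 were over 1 in thorax alone (11.4% of all genes), and RpL38 was over 1 in gut alone (9.56% of all genes). No member was over 1 in all 3, beside 15.9% of all genes. These counts depend on the scaling in all 3 tissues: with total-count scaling the ratio of 22 members in thorax, 22 in gut and 16 in carcass turned from under 1 to over 1.

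Taken over the 3 tissues with tissue as a block, edgeR's quasi-likelihood test found 0 of 82 members at an adjusted p under 0.05, beside 0.0% of 9293 genes. No member had an unadjusted p under 0.05 by edgeR, and DESeq2 called 0 members after adjustment, beside 1.31% of all genes, and 2 before it. This fit asks for a difference common to the tissues and its spread is estimated from 2 residual degrees of freedom.

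By the listed reads, most paralogue families were carried by 1 gene in every library. Shares were computed from reads per kilobase of exon within a family. RpL10Ab, RpS28b, RpL37a and RpL7, with partners at 0 reads or nearly so, held 99.97% to 100% of their families in every library. The shares of RpS28b and RpL7 are less certain, because RpS28-like and RpL7-like overlap other coding genes on the same strand. The RpS10 family is set aside because RpS10a was not measured. RpS19b reached at most 0.105% of its family and RpL22-like at most 0.103%. How reads were assigned between near-identical copies is not stated in the labels, so the split within a family is less certain than its sum.

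RpS14a and RpS14b, adjacent genes on chromosome X (7933742 to 7934677 and 7934898 to 7935792, plus strand), were both used at a nearly fixed ratio. The share of RpS14b was 33.3% in the foxo RNAi thorax and 34.4% in the control thorax. In gut it was 34.4% in the foxo RNAi library and 34.5% in the control library, and in carcass 33.5% and 35.2%. The counting intervals of the 2 carcass shares, 32.7% to 34.4% and 34.4% to 36.05%, overlap at their edges.

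RpL34b (chromosome 3R) was the main gene of its family, and RpL34a gave a lesser share that varied more. RpL34a held 23.3% in the foxo RNAi thorax and 26.1% in the control thorax, 22.5% and 20.4% in gut, and 25.6% and 26.2% in carcass. RpS15Aa, on chromosome X, held 94.6% to 96.8% of its family. RpS15Ab, a lowly used copy on chromosome 2R, held 5.40% in the foxo RNAi thorax (5.06% to 5.75%) and 4.25% in the control thorax (3.85% to 4.68%). In gut it held 3.88% and 3.55%, and in carcass 4.02% and 3.21%. The foxo RNAi library was higher in each tissue, with counting intervals that overlap in gut and not in thorax or carcass.

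**Figure D3:**
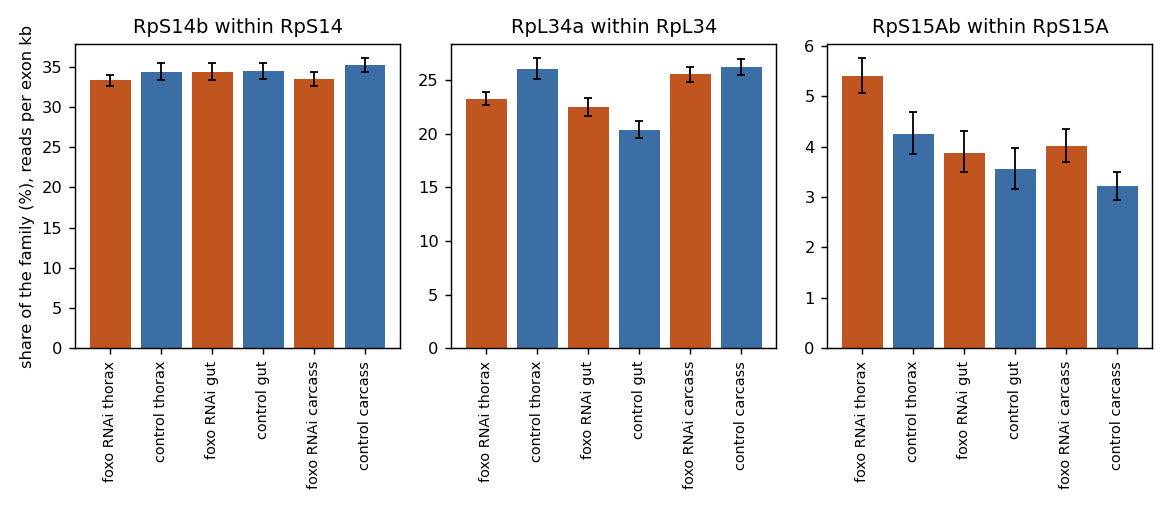
Share of RpS14b, RpL34a and RpS15Ab within their families, in percent of reads per exon kilobase, in each library, with foxo RNAi in orange and control in blue. Error bars are 95% counting intervals, and each panel has its own axis from 0. RpS14b stays between 33.3% and 35.2%, RpL34a between 20.4% and 26.2%, and RpS15Ab between 3.21% and 5.40%.

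Between tissues, ribosomal protein genes were lower in thorax than in gut or carcass by their median, and between gut and carcass a single member passed. All 6 libraries entered 1 edgeR quasi-likelihood fit, with genotype as a covariate and Benjamini-Hochberg adjustment over 9293 genes. The 2 libraries of a tissue came from different genotypes, so the spread is what remained after a common genotype term.

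Thorax against gut gave 28 members lower and 1 higher of 82, beside 26.5% of all genes lower and 28.1% higher. The median log2 difference was -0.80 for the members and -0.06 for all genes, and 81 of 82 members were below 0, beside 51.7% of all genes. RpS21 had 279 and 268 CPM in the foxo RNAi and control thorax, against 470 and 465 in the foxo RNAi and control gut, a log2 difference of -1.27 ± 0.26 (SE, adjusted p = 0.0107 by edgeR). The ubiquitin fusion gene RpL40 fell by 1.17 ± 0.29 (adjusted p = 0.0202), RpS20 by 1.13 ± 0.28 (0.0209) and RpL34b by 1.10 ± 0.29 (0.0239), in log2 units. Of the 6 fits that leave out 1 library, RpS21 passed in 3 and RpL40, RpS20 and RpL34b in 2 each.

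RpL24-like was the member higher in thorax, by 1.45 ± 0.39 (adjusted p = 0.0266 by edgeR), and it passed in 3 of the 6 fits that leave out 1 library, with 234 and 661 CPM in the foxo RNAi and control thorax, against 92.1 and 124 in gut. The least different core genes were RpL5 at -0.16, RpL22 at -0.33 and RpS3A at -0.33, none of which passed. By role, 14 of 44 large-subunit genes passed, 13 of 33 small-subunit genes and 1 of 3 stalk genes, RpLP2. Their medians were close, at -0.78 for large-subunit genes, -0.83 for small-subunit genes and -0.77 for stalk genes.

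The number that passed rested on single libraries and on the scaling. It was 1 without the foxo RNAi thorax, 0 without the control thorax, 2 without the foxo RNAi gut, 0 without the control gut, 14 without the foxo RNAi carcass and 12 without the control carcass, where 29.4% to 56.4% of all genes passed. With total-count scaling, which moves the median of all genes to 0.43, it was 1 higher and 1 lower, beside 37.1% and 16.6% of all genes. With DESeq2 it was 1 higher and 67 lower, beside 30.5% and 27.3% of all genes.

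Thorax against carcass gave 15 members lower and 0 higher of 82, beside 19.3% of all genes lower and 21.9% higher. The count lower was thus near the share of all genes, whereas the median was -0.81 for the members and -0.03 for all genes. RpS2, a small-subunit gene known as string of pearls for its oogenesis phenotype, had 1068 and 942 CPM in the foxo RNAi and control thorax, against 3099 and 2159 in carcass, a log2 difference of -1.19 ± 0.35 (adjusted p = 0.0427 by edgeR). RpS20 was at -1.07 ± 0.28 (0.0332), RpS19a at -1.04 ± 0.30 (0.043) and RpS13 at -1.03 ± 0.31 (0.0453). Of the 6 fits that leave out 1 library, RpS2 passed in 2 and RpS20, RpS19a and RpS13 in 0, and with RLE size factors RpS2, RpS19a and RpS13 did not pass (adjusted p = 0.0545, 0.0559 and 0.0601 by edgeR). By role, 10 of 33 small-subunit genes, 4 of 44 large-subunit genes, 0 of 3 stalk genes and RpLP0-like passed. The medians were close, at -0.83 for small-subunit genes and -0.80 for both large-subunit and stalk genes. The counts that passed therefore show no difference in size between the subunits.

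The number of members that passed was 2 without either thorax or either gut library, 1 without the foxo RNAi carcass and 3 without the control carcass, where 21.9% to 36.4% of all genes passed. DESeq2 called 74 members lower and 1 higher, beside 21.9% and 25.8% of all genes. The RLE scaling called 5 members lower, beside 17.9% of all genes, and total-count scaling 66, beside 25.2%. The ovary and eggshell list moved with this comparison, with 10 of 10 measured genes lower in thorax, 4.54 and 9.73 CPM in sum in the foxo RNAi and control thorax, against 9269 and 3685 in carcass. Its part in the ribosomal protein values was not tested.

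Gut against carcass gave 1 member lower and 0 higher, beside 22.8% of all genes lower and 20.7% higher. The lowest of the other 81 members was RpL5 at -0.59, and the median was 0.03 for the members and -0.10 for all genes. With total-count scaling the medians were -0.65 for the members and -0.77 for all genes, and 16 members were lower, beside 43.9% of all genes. The ovary and eggshell list was also lower in gut in 10 of 10 measured genes, with 17.5 and 18.9 CPM in sum in the foxo RNAi and control gut.

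**Figure D4:**
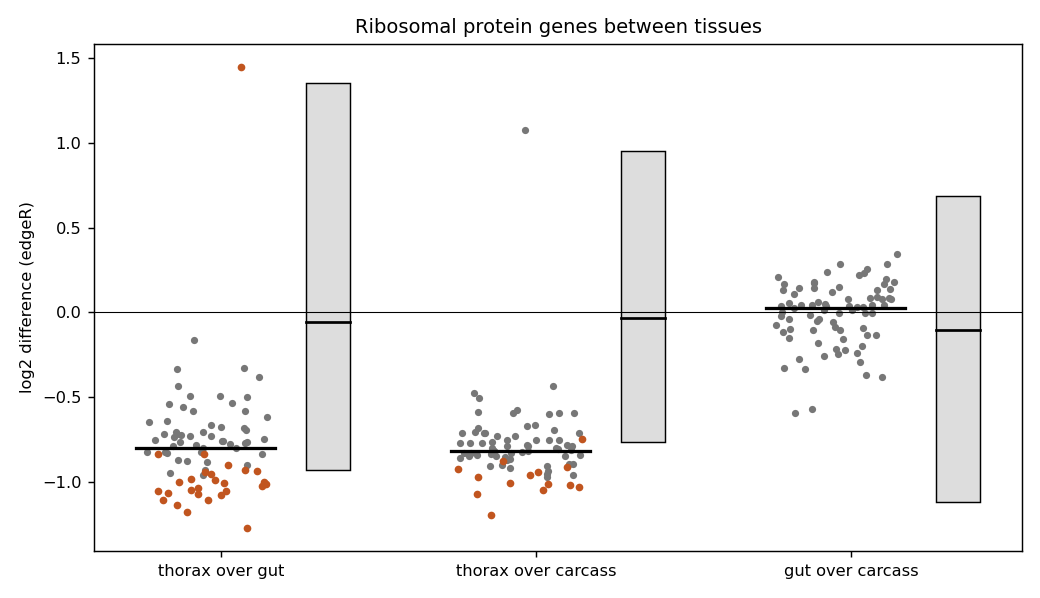
Log2 difference between tissues for 79 ribosomal protein genes (edgeR), with orange points past an adjusted p of 0.05 and bars at the medians of all 82 tested members. The grey boxes span the first to the third quartile of all 9293 genes with their median. Members crowd near -0.80 in the 2 thorax comparisons and near 0 in gut over carcass.

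Genes that build ribosomes or work with them were set beside the ribosomal proteins. Of 24 ribosome biogenesis genes, 9 were lower in thorax than in gut, beside 26.5% of all genes, with a median log2 of -0.57. In thorax against carcass 14 were lower, beside 19.3% of all genes, with a median of -1.05. In gut against carcass 5 were lower, beside 22.8% of all genes, so that count was near the share of all genes. Fib, the box C/D methyltransferase gene fibrillarin, had 38.6 and 31.7 CPM in the foxo RNAi and control thorax, against 58.1 and 59.2 in gut and 250 and 110 in carcass. In the carcass genotype comparison Fib was 2.01-fold higher, the single biogenesis gene called, beside 3.41% of all genes called higher. Its log2 of 1.01 was 0.996 with DESeq2 size factors and then no call. The list's median log2 was 0.55, where the ribosomal proteins' was 0.07.

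Translation elongation factors also include a pair of paralogues. Ef1alpha100E, the lesser of the 2 fly genes for elongation factor 1 alpha, had 1118.1 CPM in the foxo RNAi thorax and 2168 in the control thorax, against 5.69 and 2.61 in gut. It was 2.06-fold lower in the foxo RNAi thorax and 2.33-fold lower in the foxo RNAi carcass, and was the 1 of 7 elongation factors called in each. Of all genes, 2.72% were called lower in thorax and 10.2% in carcass. The thorax call ended with total-count scaling, at a log2 of -0.96. The general gene Ef1alpha48D had 9956 and 10824 CPM in the foxo RNAi and control thorax, a ratio of 0.866.

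Of 16 initiation genes measured, 1 was lower in the foxo RNAi thorax, beside 2.72% of all genes. It was the repressor gene Thor that the list of growth regulators also holds. No initiation gene was called in gut or carcass between genotypes. Of 7 subunit genes of RNA polymerases I and III, 0 were called between genotypes in any tissue. In thorax against carcass 4 of the 7 were lower, beside 19.3% of all genes. Mitochondrial ribosomal proteins form a separate ribosome. Of 71 genes, 14 were lower and 6 higher in thorax than in gut, beside 26.5% and 28.1% of all genes. Against carcass, 6 were lower and 9 higher in thorax, beside 19.3% and 21.9% of all genes. The genotype medians of these mitochondrial genes were -0.21 in thorax, 0.07 in gut and 0.35 in carcass. Those of the cytosolic genes were 0.00, -0.34 and 0.07.

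Of 18 regulators of growth, 2 were lower in the foxo RNAi thorax, beside 2.72% of all genes. These were Thor, the 4E-BP translation repressor gene, by 2.01-fold, and Sesn, the Sestrin gene, by 2.44-fold. None was called in carcass, beside 3.41% of all genes called higher and 10.2% called lower. The call of Thor ended with total-count scaling, at a log2 of -0.92, and with DESeq2 size factors, at -0.99. InR, the insulin receptor gene, was the 1 called in gut, 2.45-fold higher, beside 2.22% of all genes called higher.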

How the data were processed

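Total RNA was made into stranded libraries, per the labels' protocols, and reads of 50 bases were mapped to genome Release 6, per the series' design text. No aligner, counting rule or annotation is given in the sources used here. Per gene, the authors deposited a whole-number read count, unnormalized, for 17609 genes, and RPKM values. For members, RPKM was close to the count divided by library total and gene span, though not exactly equal to it. For CR33222 it was above 0 at a count of 0, so RPKM did not follow from the count in every gene.

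Members and lists were chosen with earlier results of these data known, and 4 symbols that named other genes were dropped from the biogenesis list after values were seen. Exons and strands came from Ensembl release 115 (BDGP6), where 90 members matched by symbol and 2 by position, and 91 had the deposited start and end. Genotype ratios used TMM factors from the pair of libraries and 0.5 added reads, with Clopper-Pearson intervals at a level of 0.95 (scipy 1.17.1). Reads are not independent molecules, so intervals and the floor of 3 counts cover counting error only. CPM values are unscaled counts over the library total. Tissue comparisons used edgeR 4.0.16 in R 4.3.3, with genes kept by filterByExpr, and DESeq2 1.42.0 as an alternative. The edgeR fits were also run on simulated counts with known changes and 1 spread common to all genes. Some genes that this rule takes are not reported here. The text otherwise names all paralogues, stalk and ubiquitin fusion genes, called members (the 5 largest each way where more than 10), the 5 highest and lowest ratios per tissue, and the 5 most and least abundant single-copy genes.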

Additional observations from a re-analysis of the deposited data

How the results depend on the processing

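The fit of genotype over tissues paired the 2 libraries of a tissue by its tissue block, and it called 0 members with or without that block. The labels give no replicate numbers to pair by. Counts of called members in the genotype comparisons kept within 1.5 times under other scalings, read minimums and the RPKM scale. The exceptions were the 1.5-fold rule in gut (2 called) and, among alternatives chosen after seeing the data, thorax with members that overlap no coding gene (0) or without RpL24-like and RpLP0-like (0). Thorax against gut (29 members) gave 68 with DESeq2, 2 with total-count scaling and 46 with no genotype covariate. Thorax against carcass (15) gave 75 with DESeq2, 5 with RLE size factors, 66 with total-count scaling and 32 with no genotype covariate. Gut against carcass (1) gave 3 with DESeq2 and 16 with total-count scaling. Without 1 library at a time the counts ran from 0 to 14 and from 1 to 3 in the 2 thorax comparisons, and stayed at 1 in gut against carcass and at 0 for genotype over tissues. The median share over the 6 libraries was 26.3% from raw reads and 27.2% from RPKM for RpS14b (34.4% per exon kilobase), 3.06% and 8.27% for RpS15Ab (3.95%), and 17.8% and 20.2% for RpL34a (24.4%). The cause of these changes was not tested. No called gene reversed direction. Among ratios that were not called, total-count scaling and the RPKM scale turned RpS15Ab (0.23 and 0.22), RpLP0-like (0.22 and 0.21), RpL10 (both 0.17) and RpL34a (both 0.16) in gut, RpL21 (0.073 and 0.0735) and RpL38 (0.0791 and 0.0794) in thorax, and RpL24-like (0.000132 and 0.002001) in carcass to above 0. The alternative of members sharing no 50-base sequence with another gene was not run. With 1 library per genotype and tissue, no depth makes up for the missing replicates, and members under 30 reads were not compared.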

Other observations

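Members near the centromeres shared a lower ratio in carcass. The windows, chosen after the values were seen, were beyond 22 Mb on 2L and X, before 5 Mb on 2R, beyond 23 Mb on 3L, before 4 Mb on 3R, and all of chromosome 4. They held RpL5, RpL21, RpL38, RpL10, RpL15 and RpS3A. In carcass these 6 had log2 ratios of foxo RNAi over control between -0.57 and -0.26, with a median of -0.30, where the other 76 members had a median of 0.09. The lowest of the other 76 was at -0.33, so the ranges overlapped. In thorax the median of the 6 was -0.27 and that of the other 77 was 0.03, though RpL21 and RpL38 stood at -0.01 and were above 0 with total-count scaling (0.07 and 0.08). In gut the 6 lay above the others, at -0.13 against -0.35.

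Genes of the same windows that are not ribosomal protein genes had medians of -0.11 in thorax (195 genes), 0.17 in gut (170) and -0.13 in carcass (187). Other genes outside the windows had 0.00, -0.01 and 0.06. These are descriptions of 3 pairs of libraries, and no test was made.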
